A study of Mus musculus with 8 samples.

Results

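A set of 10 genes of endoplasmic reticulum (ER) stress and secretory load were followed through 12 days of osteogenic culture in calvarial osteoblastic cells from WT and Def6-/- mice. The 10 genes were picked by symbol out of 24421 genes in the files. They are the chaperones and folding enzymes Hspa5, Hsp90b1, Pdia4 and Dnajb9, the degradation factor Herpud1, the transcription factors Xbp1, Creb3l1, Atf4 and Ddit3, and the pseudokinase Trib3. All 10 had reads in each of the 8 libraries, between 12 and 6174, and all 10 passed the filter on low values.

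The cells were isolated from the skull caps of newborn C57BL/6 mice, expanded in culture, and either harvested at day 0 or kept until day 12 in medium with ascorbic acid and β-glycerophosphate. The 4 groups were formed by genotype (WT, or Def6-/- carrying a germline deletion of Def6) and day, each with 2 libraries of poly-A RNA. Nothing in the sources used here ties a library to single animals, and the cells were not sorted, so that p-values measure the spread between these libraries. Def6 itself stood at 39.6 to 58.0 normalized CPM in the 4 WT libraries and at 0 to 0.854 in the 4 Def6-/- libraries, and was lower in Def6-/- cells at day 0 (log2 difference −5.40, adjusted p = 0.000542, limma) and at day 12 (−4.94, adjusted p = 0.00116, limma). The unit, normalized CPM, is the CPM value scaled to the reads counted on genes, with TMM factors.

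The ER folds the proteins that a cell secretes, and osteoblasts secrete large amounts of collagen. When unfolded proteins gather in the ER, 3 membrane sensors respond: IRE1 (Ern1) splices the Xbp1 mRNA, ATF6 (Atf6) is cut to release a transcription factor, and PERK (Eif2ak3) phosphorylates the translation factor eIF2α, which slows translation in general but favours that of Atf4. Hspa5 (BiP) is the main ER chaperone and a classical target of ATF6 and XBP1, whereas Trib3 and Ddit3 (CHOP) lie downstream of ATF4, which also responds to amino acid shortage and drives genes of amino acid supply.

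The promoters of the chaperones and of the ATF4 targets carry different elements, and the stretches in which such letters were found among the 10 genes are printed below from RefSeq (build GRCm38.p6), 5′ to 3′ on the strand of the gene, with each match in capitals. The first element is the ER stress response element (ERSE), searched as CCAAT and CCACG with any 9 bases between them, which 0.119% of 32851 mouse promoters of the same length hold on either strand. The second is ERSE-II, ATTGG and CCACG with any 1 base between them (0.0365% of promoters). The third is the C/EBP-ATF response element bound by ATF4 (CARE), searched as TGATG and AA with any 1 base between them (3.97% of promoters). Capitals that do not read as the letters given here are matches on the opposite strand.
Hspa5 (chr2:34771970-34772089, plus strand): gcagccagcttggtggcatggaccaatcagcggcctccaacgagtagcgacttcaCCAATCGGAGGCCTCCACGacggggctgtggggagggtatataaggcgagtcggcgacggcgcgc
Hsp90b1 (chr10:86705525-86705664, minus strand): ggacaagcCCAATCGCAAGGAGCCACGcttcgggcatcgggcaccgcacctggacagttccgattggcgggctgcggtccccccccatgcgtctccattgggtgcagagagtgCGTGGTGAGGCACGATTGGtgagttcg
Herpud1 (chr8:94386309-94386428, plus strand): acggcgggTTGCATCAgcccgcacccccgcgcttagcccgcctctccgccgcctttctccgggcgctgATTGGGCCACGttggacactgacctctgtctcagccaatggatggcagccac
Trib3 (chr2:152344035-152344051, minus strand): caggtTTACATCAgccg

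A promoter entry was at hand for 9 of the 10 genes, Creb3l1 being without one. No match of one element overlapped a match of another. Hsp90b1 held 2 ERSE matches, from −212 to −194 and from −107 to −89 relative to the start site, and Hspa5 held 1, from −65 to −47. Herpud1 was the one gene of the 9 with both kinds of element, an ERSE-II from −52 to −42 and a CARE from −112 to −105. In Trib3 the CARE lay from 15 to 22 bases past the start site. These positions depend on the RefSeq start sites used. In the GENCODE annotation Trib3 starts at chr2:152344032, and the match lies before that start. Hspa5 starts there at chr2:34771970, so that its match lies past that start. A match is a run of letters and not a measured binding site, and the absence of a match in the other 5 promoters covers this window of 300 bases only.

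For Xbp1, the stretch that matters is the one that IRE1 removes from the mRNA, since its loss shifts the reading frame and yields the active factor. It is 26 bases long, lies in exon 4 of 5 at chr11:5524282-5524307 (GRCm38, plus strand), and is shown in capitals with 2 flanking bases on each side.
Xbp1: agCACTCAGACTATGTGCACCTCTGCAGca
Counts per gene cannot tell spliced from unspliced Xbp1, so that the values given for Xbp1 below are levels of the whole transcript.

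Before the results, 2 libraries need mention, because they stood apart in these genes by their high levels. In WT day 0 replicate 1, 34.9% of reads had no unique alignment against 21.4% to 26.6% in the other 7 libraries, and it differed from its partner by a chi-square per gene of 34.3, against 4.53 to 12.6 within the other groups. It had the highest level among the 4 day 0 libraries in 8 of the 10 genes. Def6-/- day 12 replicate 1 had the highest level among the 4 day 12 libraries in 10 of the 10 genes. At the other end, Def6-/- day 0 replicate 2 had the lowest level among the 4 day 0 libraries in 9 of the 10 genes. How often each library was highest or lowest over all genes was not counted. Some counts, medians or estimates of the 10 genes are therefore also given without either or both of the 2 high libraries. Those of the pathway lists are given where leaving them out changed a call or a sign. The 8 libraries held 2414856 to 3482837 reads on genes, and the lowest member value (12 reads of Trib3 in Def6-/- day 12 replicate 2) rests on few reads.

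**Figure D1:**
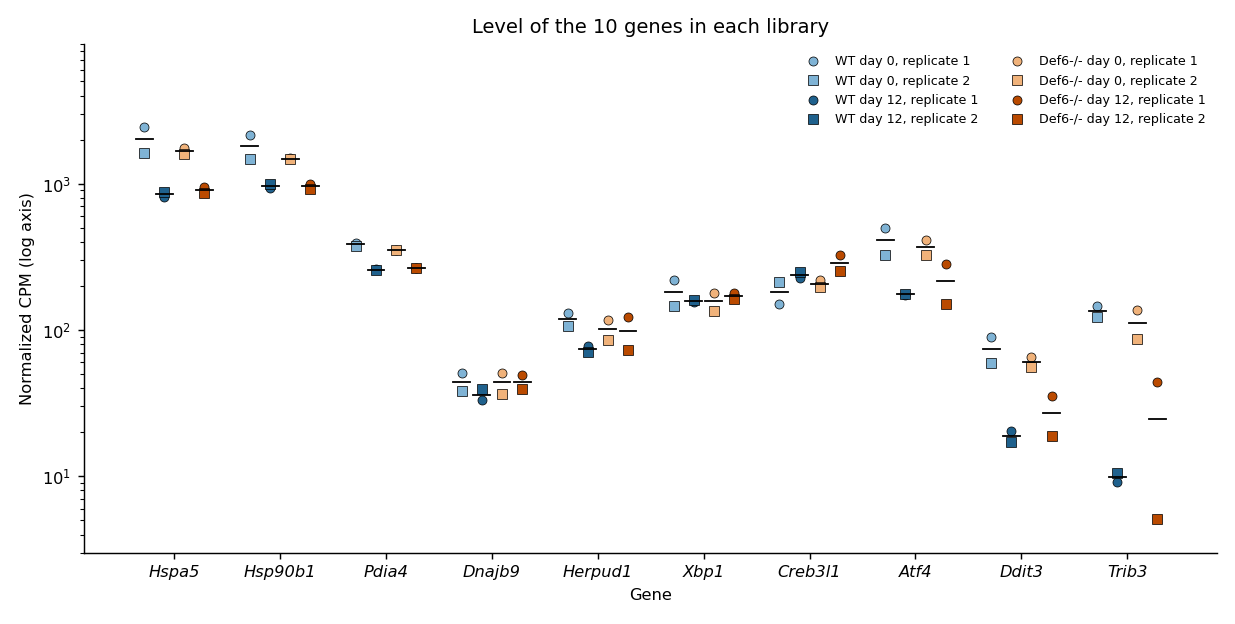
Normalized CPM (log axis) of the 10 genes in each of the 8 libraries, coloured by genotype and day, with circles for replicate 1, squares for replicate 2 and a black line at the mean of each group of 2. Hspa5, Hsp90b1, Pdia4, Atf4, Ddit3 and Trib3 sit lower at day 12 than at day 0 in both genotypes, and the circle of Def6-/- day 12 lies far above its square in Trib3 (43.9 against 5.12).

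The first question was how these genes moved with 12 days of osteogenic culture in WT cells. Of the 10 genes, 6 were lower at day 12 (adjusted p under 0.05 in limma, against 5.65% of 12340 genes tested) and none was higher (12.7% of all genes). The median log2 change of the 10 genes was −0.77, beside 0.00 over all genes tested. The 6 genes were Trib3, Ddit3, Hspa5, Atf4, Hsp90b1 and Pdia4, and the drop ranged from 1.49-fold to 12.4-fold. By the order of the libraries alone, 7 genes had both day 12 values below both day 0 values (26.6% of all genes) and 1 had them above (29.3%).

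Among the chaperones, Hspa5 stood at 2435 and 1621 normalized CPM in the WT day 0 libraries and at 811 and 876 at day 12. The day 12 values were both below the day 0 values, a log2 change of −1.24 ± 0.22 (SE, n = 2 libraries a group, adjusted p = 0.00575, limma). Hsp90b1 (GRP94), the ER member of the HSP90 family, went from 2136 and 1477 to 927 and 989 (log2 change −0.89 ± 0.21, adjusted p = 0.0204, limma). Of the exon sequence of Hsp90b1, 9.76% of 50-base words also occur in other genes, most of them in the antisense pseudogene 1810014B01Rik. A small part of its reads may therefore not have been counted on it. Pdia4, a protein disulfide isomerase, was the most even of the chaperones between replicates, at 395 and 378 on day 0 and at 259 and 257 on day 12 (−0.58 ± 0.15, adjusted p = 0.0298, limma), although it did not pass without TMM factors (adjusted p = 0.129, limma) or in DESeq2 (0.0652).

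Dnajb9 (ERdj4), a co-chaperone of BiP and a typical XBP1 target, did not follow them. Its levels were 50.5 and 38.2 normalized CPM at day 0 and 33.0 and 39.4 at day 12, ranges that overlapped, with a log2 change of −0.28 (95% interval −0.85 to 0.29, adjusted p = 0.487, limma). Xbp1 itself stood at 218 and 145 at day 0 and at 155 and 161 at day 12 (−0.17, interval −0.69 to 0.35, adjusted p = 0.652, limma). Without WT day 0 replicate 1 the estimate for Xbp1 was 0.12 and thus of the opposite sign. Herpud1, which brings ER proteins to degradation, had day 12 values (77.5 and 70.8) that were both below day 0 (129.8 and 106), yet missed the threshold after adjustment (−0.66 ± 0.27, unadjusted p = 0.0394, adjusted p = 0.132, limma).

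The genes of the ATF4 branch had the widest changes. Atf4 stood at 494 and 326 normalized CPM in the day 0 libraries and at 174 and 176 at day 12 (log2 change −1.19 ± 0.31, adjusted p = 0.0287, limma). Ddit3, a transcription factor linked to cell death under lasting ER stress, went from 89.9 and 59.0 to 20.4 and 17.2 (−1.91 ± 0.32, adjusted p = 0.00435, limma). Trib3, which binds ATF4 and CHOP and is induced by both, dropped from 145 and 123 to 9.18 and 10.5, a 12.4-fold difference (−3.64 ± 0.73, adjusted p = 0.0096, limma). All day 12 values of these 3 genes lay below all day 0 values. Of the exon bases of Ddit3, 3.97% overlap Mars on the opposite strand, and the strand setting of the counting is not given in the sources used here.

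Creb3l1 (OASIS), an ER-resident factor of osteoblasts that is activated by cleavage and is known for driving type I collagen, was the one gene of the 10 with a positive estimate. Its WT levels were 150.3 and 212 at day 0 and 226 and 249.99 at day 12. The groups did not overlap, but the difference was not beyond the spread (0.41 ± 0.22, interval −0.08 to 0.90, adjusted p = 0.229, limma), and it was 0.16 without WT day 0 replicate 1.

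These calls rest in part on the spread pooled over the 4 groups. Without WT day 0 replicate 1, 6 of 10 genes were called in WT cells (9.69% of all genes were lower), with Hspa5 at −0.94 and Atf4 at −0.89. Fitted on the 4 WT libraries alone, 2 of 10 genes passed (1.65% of all genes were lower), Ddit3 and Trib3. Without WT day 12 replicate 1 or replicate 2, fewer of the 10 genes passed than with all libraries, and fewer of all genes did. The median log2 change of the 10 genes was then −0.78 and −0.76. Leaving out a library of the Def6-/- groups, whichever it was, also lowered the numbers of the 10 genes and of all genes that passed in WT cells. The WT estimates themselves do not change in those settings, since only the pooled spread does.

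The same comparison in Def6-/- cells gave 3 lower genes of 10, Ddit3, Trib3 and Hspa5 (4.79% of all genes were lower), and none higher (12% of all genes). The median log2 change was −0.52, beside 0.01 over all genes. Both day 12 values lay below both day 0 values in 6 genes (32.5% of all genes) and above them in 1 (35.1%). Hspa5 went from 1747 and 1605 normalized CPM to 946 and 858 (log2 change −0.89 ± 0.22, adjusted p = 0.0263, limma), and Ddit3 from 65.5 and 55.9 to 35.3 and 18.8 (−1.20 ± 0.32, adjusted p = 0.0356, limma). Trib3 stood at 136 and 86.9 at day 0 and at 43.9 and 5.12 at day 12 (−2.73 ± 0.73, adjusted p = 0.0347, limma). The 2 day 12 libraries of Trib3 differed from each other 8.58-fold, but both lay below day 0. Its change was −4.16 without replicate 1 of day 12 and −1.29 without replicate 2. In edgeR and DESeq2 on the recovered reads it did not pass (adjusted p = 0.0512 and 0.116).

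Atf4, Hsp90b1 and Pdia4 had the same order of groups in Def6-/- cells, but missed the adjusted threshold. Atf4 was at 409 and 325 at day 0 and at 280.4 and 150.3 at day 12 (−0.83, unadjusted p = 0.0258, adjusted p = 0.108, limma), Hsp90b1 at 1489 and 1474 and then at 991 and 922 (−0.63, adjusted p = 0.0774, limma). Pdia4 stood at 354 and 352 and then at 266 and 264 (−0.41, adjusted p = 0.103, limma). The replicates of Pdia4 were closer to each other than the days by a wide margin, and the threshold was missed under the spread shared by all groups. When only the 4 Def6-/- libraries were fitted, 7 genes passed: the 6 genes that were lower in WT cells, and Creb3l1, which was higher. The share of all genes rose with it, to 13.4% lower and 18.3% higher. The count was also 7 without replicate 1 or replicate 2 of WT day 0 (34.9% and 35.1% of all genes called in either direction) and 6 without both libraries that stood apart (24.7%). Without Def6-/- day 12 replicate 1 alone the median log2 change of the 10 genes was −0.56. No gene of the 10 passed without either library of WT day 12, either of Def6-/- day 0 or Def6-/- day 12 replicate 2. Fewer of all genes passed in these settings as well, and the medians of the 10 genes lay between −0.53 and −0.39.

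Creb3l1 stood at 219 and 196 normalized CPM in the Def6-/- day 0 libraries and at 324 and 252 at day 12 (log2 change 0.46, interval −0.03 to 0.95, adjusted p = 0.193, limma). Xbp1 (178 and 135, then 179.8 and 163) and Dnajb9 (51.2 and 36.5, then 48.9 and 39.7) overlapped between days, with log2 changes of 0.14 and 0.03. Herpud1 was at 117 and 84.9 at day 0 and at 122 and 73.4 at day 12. Its day 12 replicates lay on either side of both day 0 values, and the change was −0.07 (interval −0.69 to 0.54), or −0.44 without Def6-/- day 12 replicate 1.

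**Figure D2:**
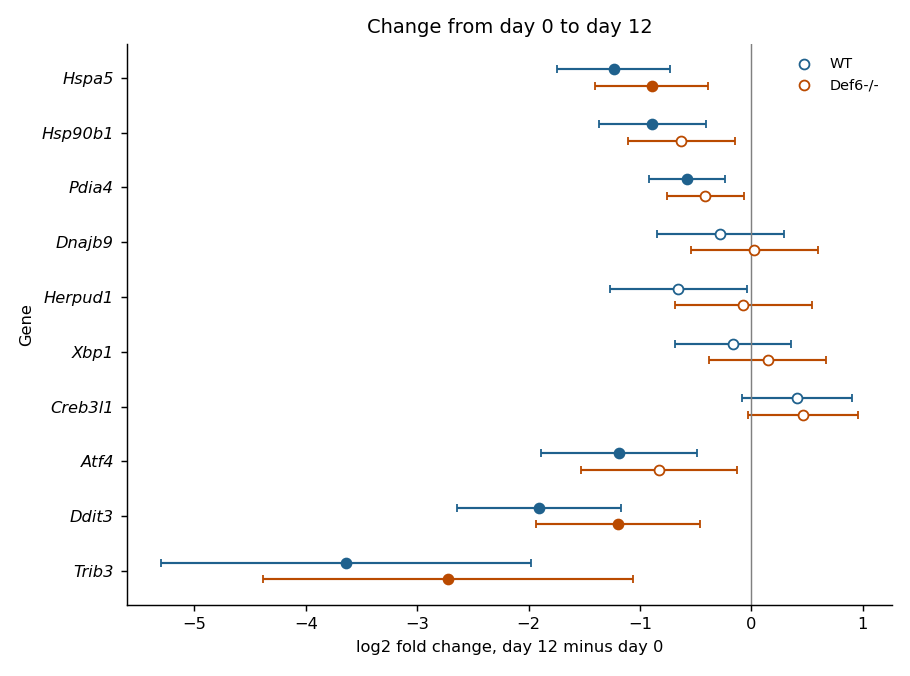
Log2 fold change from day 0 to day 12 of the 10 genes in WT (blue) and Def6-/- (orange) cells, with 95% intervals from limma; filled points have an adjusted p under 0.05. Of the WT points 6 are filled and of the Def6-/- points 3, all left of 0, and Creb3l1 lies right of 0 in both genotypes.

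Per kilobase of exon, the order of the 10 genes shifted between the days. In WT cells at day 0 the order ran from Hspa5 (479.6 ± 136 normalized CPM per kilobase, SD, n = 2) and Hsp90b1 (448 ± 115), which did not differ beyond their spread, to Atf4 (174 ± 50.5) and Pdia4 (161 ± 5.11), which did not either. Creb3l1 (69.7), Trib3 (63.0), Xbp1 (55.8), Herpud1 (50.5) and Ddit3 (43.5) followed close together, and Dnajb9 (17.4) was last. At day 12 Hsp90b1 (238) and Hspa5 (199.5) still led, Pdia4 (108) and Creb3l1 (91.4) came before Atf4 (74.2), and Trib3 (4.62) had gone from the sixth to the tenth place. In Def6-/- cells Trib3 also held places 6 and 10 (52.4 and 11.5 per kilobase), while Creb3l1 went from the fifth to the third place (79.8 and 111), with Pdia4 next to it at 110.4.

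Markers of other cell types also changed in level with day, and in these bulk samples fewer cells of a type and less RNA per cell cannot be told apart. The summed normalized CPM of 15 macrophage markers was 185 to 414 in the day 0 libraries and 3178 to 6337 at day 12, with 13 of the 15 called higher in each genotype. WT day 12 replicate 1 held 6337 and its partner 3178. The sum of 8 adipocyte markers went from a range of 37.3 to 46.9 to a range of 325 to 472, that of 12 osteoblast markers from 36461 to 52002 up to 95346 to 133458. Chondrocyte markers moved both ways. Their sum over 7 genes went from 2025 to 3899 at day 0 down to 1180 to 1652 at day 12. Col2a1, the collagen of cartilage, was called lower in both genotypes (log2 change −1.50 in WT and −1.86 in Def6-/- cells) and Acan in Def6-/- cells (−1.56, beside −1.21 with adjusted p = 0.0553 in WT cells, limma), whereas Comp was called higher in both (3.94 and 4.12) and Col9a1 in Def6-/- cells (1.42). The lymphocyte markers Cd3e, Cd3g, Cd79a, Cd79b and Ms4a1 and the plasma cell marker Jchain were at 0 in all 8 libraries, Mzb1 had 1 read in 1 Def6-/- day 0 library, and Sdc1, which other cells also make, stood at 155 to 186 normalized CPM in the 8 libraries. The part of the cell mixture in the changes of the 10 genes was not tested.

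The genes around the 10 were described from lists of the pathway. Of 25 ATF4 targets, 17 were lower at day 12 in WT cells, as were Atf4, Ddit3 and Trib3, and none was higher, with a median log2 change of −1.74. In Def6-/- cells 14 of 25 were lower and 1 was higher (median −1.29). Beside these counts and those of the lists below, 5.65% of all genes were lower and 12.7% higher in WT cells. In Def6-/- cells 4.79% of all genes were lower and 12% higher. Psat1, an enzyme of serine synthesis, stood at 326 and 347 normalized CPM in the WT day 0 libraries and at 49.1 and 48.6 at day 12 (−2.76, adjusted p = 0.000462, limma). Aars, an aminoacyl-tRNA synthetase, went from 489 and 576 to 154 and 162 (−1.74, adjusted p = 0.00102, limma). Both were lower in Def6-/- cells as well, by −2.28 and −1.49. In each genotype 2 of the 25 estimates were positive, and the genes, named after their values were seen, were Atf3 in both, Slc7a11 in WT and Nupr1 in Def6-/- cells. Atf3 had a log2 change of 1.10 in WT cells (adjusted p = 0.0937, limma) and 1.45 in Def6-/- cells (adjusted p = 0.0394, limma), where it was the higher gene. It was called in WT cells without WT day 0 replicate 1 (1.54, adjusted p = 0.0152, limma) and missed the threshold in Def6-/- cells without Def6-/- day 12 replicate 1 (1.36, adjusted p = 0.1995, limma). Slc7a11 changed by 0.23 in WT cells, and by −0.29 without WT day 0 replicate 1, and Nupr1 by 0.53 in Def6-/- cells, neither of them past the threshold.

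The list of ER chaperones beyond the members changed less. In WT cells 5 of 19 were lower and none higher (median −0.44), and in Def6-/- cells 2 were lower and 1 was higher (median −0.26). Hyou1, a nucleotide exchange factor for BiP, stood at 391 and 362 at WT day 0 and at 133 and 152 at day 12 (−1.40, adjusted p = 0.000745, limma), and was lower in Def6-/- cells by 1.35. Canx, the membrane-bound lectin chaperone calnexin, went from 817 and 847 to 446 and 449.7 (−0.89, adjusted p = 0.00501, limma), and changed by −0.81 in Def6-/- cells. Its soluble relative Calr did not pass, with log2 changes of −0.44 (adjusted p = 0.159, limma) and −0.27. The 1 higher gene in Def6-/- cells was Sil1, another nucleotide exchange factor for BiP (0.71), which missed the threshold without Def6-/- day 12 replicate 1 (0.69, adjusted p = 0.169, limma), as did Canx there (adjusted p = 0.0729, limma). Without WT day 0 replicate 1 the WT median of the list was −0.22, with 5 lower and 1 higher.

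The sensors upstream did not share 1 direction. Of 9 tested sensors, related ER membrane factors and site proteases, 2 were higher and 1 was lower in each genotype. Of all genes, 12.7% were higher and 5.65% lower in WT cells, and 12% and 4.79% in Def6-/- cells. Eif2ak3 (PERK) stood at 37.1 and 43.8 normalized CPM in the WT day 0 libraries and at 68.6 and 70.8 at day 12 (log2 change 0.77, adjusted p = 0.0203, limma), and rose by 0.79 in Def6-/- cells. Atf6 went the other way, from 86.0 and 96.9 to 58.8 and 47.7 (−0.77, adjusted p = 0.0383, limma), and by −0.74 in Def6-/- cells. Without Def6-/- day 12 replicate 1, Eif2ak3 missed the threshold in Def6-/- cells (adjusted p = 0.112, limma) and Atf6 in both genotypes (0.064 in WT and 0.105 in Def6-/- cells). Ern1 (IRE1) overlapped between days and changed by 0.45 and −0.20 in WT and Def6-/- cells. Creb3l2, the closest relative of Creb3l1 and active in chondrocyte secretion, stood at 25.6 in WT day 0 replicate 1 and at 50.9 to 76.8 in the other 7 libraries. Without that library the WT change of Creb3l2 was −0.47 in place of 0.27, and that of Ern1 was −0.35. Creb3l3, best known from liver, had 0 reads in both WT day 0 libraries and 19 and 14 reads at day 12.

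Of the other kinases and phosphatase factors that act on eIF2α, Eif2ak2 (PKR), which is activated by double-stranded RNA and induced by interferon, stood at 25.6 and 47.7 in the WT day 0 libraries and at 71.2 and 88.8 at day 12 (log2 change 1.16, adjusted p = 0.0346, limma). In Def6-/- cells it changed by 0.91 (adjusted p = 0.088, limma). Ppp1r15a (GADD34), which brings a phosphatase to eIF2α and is itself an ATF4 target, went from 96.3 and 46.0 to 22.1 and 28.5 (−1.37, adjusted p = 0.0281, limma) and by −0.89 in Def6-/- cells (adjusted p = 0.128, limma). Without WT day 0 replicate 1 the WT changes were 0.72 and −0.85, and without Def6-/- day 12 replicate 1 neither gene passed in WT cells (adjusted p = 0.0698 and 0.0534, limma).

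Further along the pathway, few genes passed. Of 15 tested genes of ER-associated degradation, Os9 and Erlec1, both lectins that recognise glycans on misfolded proteins, were higher in WT cells (0.64 and 0.92) and none was lower, beside 12.7% of all genes that were higher. In Def6-/- cells 1 of the 15 was higher, while Os9 changed by 0.45 (adjusted p = 0.112, limma) and Erlec1 by 0.75 (adjusted p = 0.0385, limma). The medians were −0.11 in WT and 0.11 in Def6-/- cells. Of 22 genes of ER translocation, Spcs3 of the signal peptidase was lower in WT (−0.82) and in Def6-/- cells (−0.65) and none was higher. The median was −0.29 in WT cells, or 0.07 and thus of the opposite sign without WT day 0 replicate 1, and −0.05 in Def6-/- cells. None of 20 genes of COPII coats and ER-to-Golgi transport passed in either genotype in limma, with 1 in WT and 3 in Def6-/- cells at an unadjusted p under 0.05 and over 1.2-fold. By that unadjusted rule 18.9% of all genes were higher and 13.6% lower in WT cells, and 18.6% and 11.5% in Def6-/- cells. Medians of the 20 genes were 0.02 and 0.00.

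Among the cargo, 5 of 9 secreted bone matrix genes were higher at day 12 in WT cells and 6 in Def6-/- cells, and none was lower, with a median log2 change of 1.70 in both genotypes. Without Def6-/- day 12 replicate 1 the Def6-/- count was 4. The estimates of Fn1 and Spp1 were negative in both genotypes. Fn1 (fibronectin) stood at 7024 and 18979 normalized CPM in the WT day 0 libraries and at 7517 and 7372 at day 12 (−0.63, adjusted p = 0.337, limma), and at 14945 and 15755 and then 7393 and 8261 in the Def6-/- libraries (−0.97, unadjusted p = 0.0464, adjusted p = 0.158, limma). Its WT change was −1.35 without WT day 0 replicate 1. Spp1 (osteopontin) changed by −0.76 and −0.10, with days that overlapped in both genotypes. Col1a2, a chain of type I collagen, stood at 8904 and 13463 normalized CPM in the WT day 0 libraries and at 32620.4 and 38778 at day 12 (1.70, adjusted p = 0.00787, limma). Col1a1, the other chain, went from 13194 and 27354 to 44112 and 55697 (1.38, adjusted p = 0.0504, limma), a change of 0.86 without WT day 0 replicate 1. Ibsp, a glycoprotein of mineralising bone, was at 10.3 and 0.707 at day 0 and at 1262 and 649 at day 12 (7.69, adjusted p = 0.00027, limma), a change of 9.05 without WT day 0 replicate 1. Bglap (osteocalcin) had 0 reads at day 0 in both genotypes and 18 to 46 reads at day 12. It shares nearly all of its sequence with Bglap2, and reads without a unique alignment were assigned to no gene. The counts of both may therefore be too low.

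**Figure D3:**
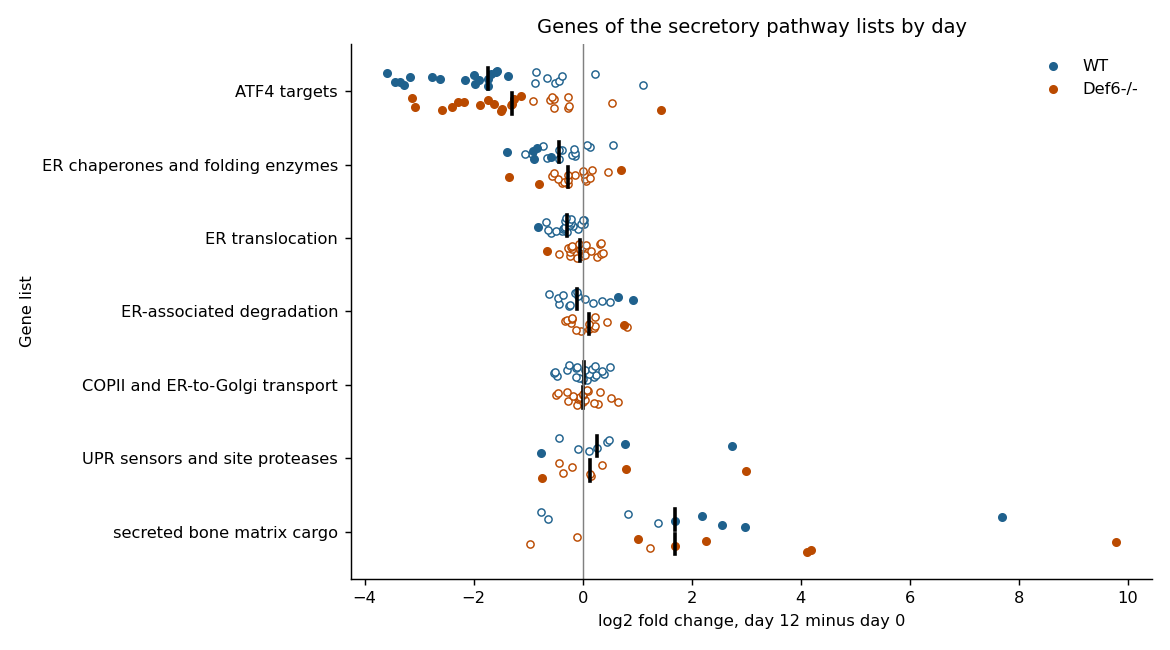
Log2 fold change from day 0 to day 12 of each tested gene of 7 lists in WT (blue) and Def6-/- (orange) cells; filled points have an adjusted p under 0.05 and black bars are medians. ATF4 targets lie mostly left of 0 (medians −1.74 and −1.29), ER-to-Golgi genes around 0, and bone matrix cargo mostly right of 0 (median 1.70 in both).

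The promoter letters were set beside these changes as a description. The CARE letters were found in 9 of the 21 ATF4 targets with a promoter entry, and ERSE in 5 of the 14 chaperones beyond the members with an entry. Of the 9 ATF4 targets with the letters, Atf3 and Slc7a11 had positive WT estimates and the other 7 negative ones. The 5 chaperones with ERSE (Calr, Canx, Creld2, Dnajc3 and Pdia6) all had negative WT estimates, as had Hspa5 and Hsp90b1, of which Canx and Pdia6 passed the test besides the 2 members. Over the whole chaperone list 16 of 19 estimates were negative, so that the sign sets the genes with ERSE apart from few others.

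**Figure D4:**
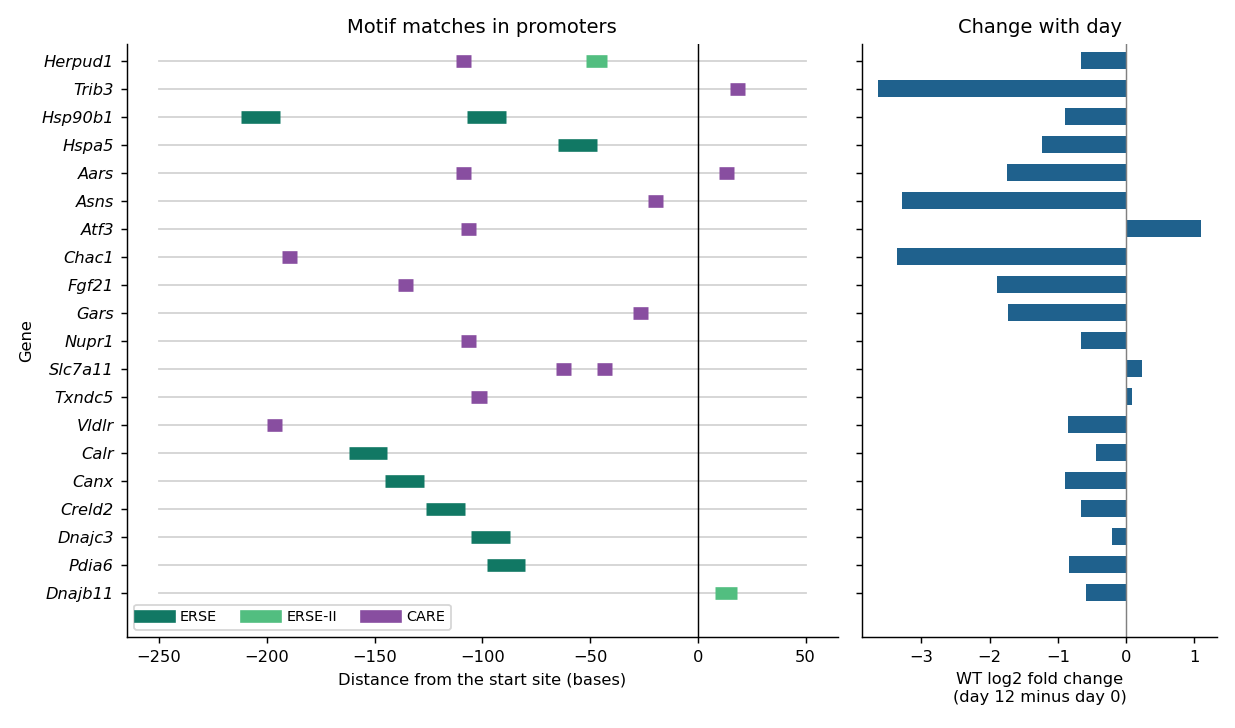
Positions of ERSE, ERSE-II and CARE letters between 250 bases before and 50 after the start site (left) in the members and in listed ATF4 targets and chaperones that hold any, with the WT log2 fold change from day 0 to day 12 as bars (right). The Trib3 match lies past the RefSeq start site and its bar is the longest at −3.64, while the bars of Atf3, Slc7a11 and Txndc5 point right.

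The second question was whether loss of Def6 altered these genes. At day 0, none of the 10 genes differed between the genotypes in limma, neither after adjustment (0.0081% of all genes lower, 0% higher) nor at an unadjusted p under 0.05 with over 1.2-fold (1.31% lower and 0.997% higher), and edgeR and DESeq2 also gave 0 by either rule. Of the 10 estimates, 9 were negative, with a median log2 difference of −0.21 beside −0.02 over all genes. Hspa5 stood at 1747 and 1605 normalized CPM in Def6-/- and at 2435 and 1621 in WT libraries, so that the lower WT value lay between the Def6-/- values. Without WT day 0 replicate 1, 6 of 10 estimates were positive and the median was 0.02. The estimate of Hspa5 was then 0.05 in place of −0.25, and that of Hsp90b1 0.00 in place of −0.26. Without WT day 0 replicate 2 in its stead, Hspa5 was at −0.54 and Hsp90b1 at −0.53, and the median of the 10 genes was −0.42. Without Def6-/- day 0 replicate 2, 5 of 10 estimates were positive and the median was 0.00048. Without Def6-/- day 0 replicate 1 the median was −0.30. The day 0 difference thus turned on which replicate was kept, in either genotype.

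Pdia4 was the one gene of the 10 whose genotypes did not overlap at day 0, with 354 and 352 in Def6-/- and 395 and 378 in WT libraries, a log2 difference of −0.13 (interval −0.47 to 0.22, unadjusted p = 0.416, limma). Genes without overlap made up 11.6% of all genes in that direction and 10.9% in the other, which held none of the 10. Creb3l1 had a positive estimate (0.21, interval −0.28 to 0.71), which was −0.03 without WT day 0 replicate 1. Outside the members, 1 chaperone gene of 19 had an unadjusted p under 0.05. This was Ero1lb, an oxidase that renews disulfide bonds, at 3.01 and 2.73 in Def6-/- and at 7.10 and 9.19 in WT libraries, or 8 and 8 against 18 and 26 reads (−1.23, unadjusted p = 0.0182, adjusted p = 0.908, limma).

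At day 12, none of the 10 genes differed either, after adjustment (0.0081% of all genes lower, 0% higher) or at the unadjusted rule (0.592% lower and 0.802% higher), in limma, edgeR or DESeq2. Here 9 of 10 estimates were positive, with a median log2 difference of 0.25 beside 0.00 over all genes. There were 4 genes with both Def6-/- values above both WT values: Creb3l1 (324 and 252 against 226 and 249.99), Xbp1 (179.8 and 163 against 155 and 161), Pdia4 (266 and 264 against 259 and 257) and Dnajb9 (48.9 and 39.7 against 33.0 and 39.4). Of all genes, 16.8% were without overlap in that direction. The margins were narrow, and the intervals of the 4 differences ran from −0.40 at the lowest to 0.85 at the highest.

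Trib3 had the largest estimate and the widest interval, 0.62 (−1.04 to 2.28), with 43.9 and 5.12 in Def6-/- against 9.18 and 10.5 in WT libraries. The WT values lay between the Def6-/- values. Ddit3 (0.44, interval −0.29 to 1.18) and Atf4 (0.23, interval −0.47 to 0.93) had the same arrangement, with a high Def6-/- replicate 1 and a replicate 2 among or below the WT values. Without Def6-/- day 12 replicate 1 the median of the 10 genes was 0.01 and 6 estimates were positive, and Trib3, Ddit3 and Atf4 came to −0.82, 0.01 and −0.22. Without replicate 2 they were 2.06, 0.88 and 0.68. The unadjusted p of Trib3 was 0.0446 in the first case and 0.000339 in the second, in opposite directions. In the second case Ddit3 and Herpud1 also had an unadjusted p under 0.05, beside 1.57% of all genes at the unadjusted rule.

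**Figure D5:**
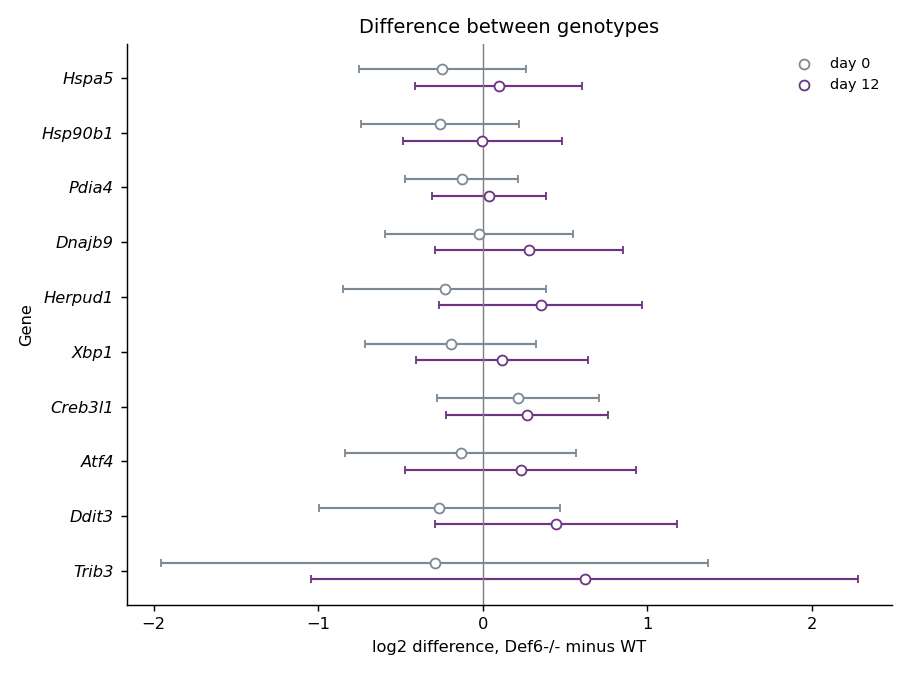
Log2 difference between Def6-/- and WT cells of the 10 genes at day 0 (grey) and day 12 (purple), with 95% intervals from limma; open points have an adjusted p of 0.05 or more. All 20 intervals cross 0, with the widest in Trib3 (−1.04 to 2.28 at day 12).

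The rest of the ATF4 branch showed the same library. Def6-/- day 12 replicate 1 had the highest level of the 4 day 12 libraries in 22 of 25 ATF4 targets, and in 6 of 19 chaperones, 6 of 22 translocation genes and 6 of 15 degradation genes. It was also highest in 7 of 9 secreted bone matrix genes, 9 of 12 osteoblast markers and 7 of 20 ER-to-Golgi genes. Among macrophage markers it was highest in 0 of 15, and among adipocyte markers in 1 of 7. The share over all genes was not counted, so that this height is not shown to be particular to the ATF4 branch. The summed normalized CPM of the ATF4 targets was 2654 in that library, 1464 in its partner, and 1562 and 1466 in the WT libraries. At an unadjusted p under 0.05 and over 1.2-fold, 2 of 25 ATF4 targets were higher in Def6-/- cells at day 12 and none was lower. Of all genes, 0.802% were higher and 0.592% lower by that rule. Stc2, a secreted glycoprotein, stood at 10.3 and 5.12 against 3.16 and 2.09 (log2 difference 1.21, unadjusted p = 0.0115, adjusted p = 1, limma), and Mthfd2, a mitochondrial enzyme of folate metabolism, at 91.1 and 34.2 against 31.6 and 26.4 (0.93, unadjusted p = 0.0366, limma). Neither passed without replicate 1, with 0.77 (unadjusted p = 0.109, limma) and 0.24 (unadjusted p = 0.375, limma).

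Among the marker sums at day 12, those of adipocyte and osteoblast markers did not overlap between the genotypes, while those of macrophage markers did. None of these markers passed after adjustment in limma. The adipocyte markers summed to 456 and 472 normalized CPM in Def6-/- and to 325 and 347 in WT libraries. At the unadjusted rule 5 of 7 tested were higher, beside 0.802% of all genes. The osteoblast markers summed to 133458 and 115897 against 95346 and 112375, and the macrophage markers to 3948 and 3439 against 6337 and 3178. Bglap and Bglap2 were higher in Def6-/- cells at the unadjusted rule, at 18.9 and 14.1 against 6.31 and 7.54 and at 23.4 and 12.8 against 5.17 and 4.61. How far these differences bear on the 10 genes was not tested.

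Finally, the change with day was compared between the genotypes in 1 model (genotype by day interaction). None of the 10 genes passed after adjustment (0% of all genes in either direction) or at the unadjusted rule (0.697% positive and 0.421% negative), in limma, edgeR or DESeq2. All 10 estimates were positive, with a median of 0.33 beside 0.02 over all genes. That is, the drop was smaller or the rise larger in Def6-/- cells, or a negative estimate turned positive (Xbp1 and Dnajb9). The smallest unadjusted p belonged to Ddit3 (0.71, interval −0.33 to 1.75, unadjusted p = 0.156, limma), followed by Herpud1 (0.58, interval −0.29 to 1.46, unadjusted p = 0.164, limma). For Hspa5 the estimate was 0.34 (interval −0.38 to 1.06). At the unadjusted rule 4 genes were counted without WT day 0 replicate 2 (Xbp1, Ddit3, Hspa5 and Hsp90b1), where 27% of all genes were, and 3 without Def6-/- day 12 replicate 2 (Ddit3, Trib3 and Herpud1), where 1.18% of all genes were. After adjustment none of the 10 passed in either case. Without both WT day 0 replicate 1 and Def6-/- day 12 replicate 1, 3 of the 10 estimates were positive and the median was −0.03, with Hspa5 at −0.02 and Ddit3 at −0.03. The comparisons within a day and across days share the same libraries, so that these counts are not separate pieces of evidence.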

How the data were processed

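Per the labels and methods, reads were trimmed with fastp, aligned to mm10 with HISAT2, counted with HTSeq and converted to CPM with edgeR; versions, annotation and strand setting are not given in the sources used here. The deposited CPM refer to all reads, unassigned ones included. They are whole multiples of the value of 1 read (within 0.01 read) except in 9 genes, all macrophage or osteoclast markers (Csf1r, Adgre1 and Acp5 among them), which were left out of tests and marker sums. Reads were recovered from the CPM, scaled to reads on genes with TMM factors, and log2(value + 1) was fitted with limma 3.58.1 (trended moderation, R 4.3.3) over 8 libraries and 4 group means; fold changes on this scale understate those of low genes. A gene was tested where the deposited CPM averaged 1 or more in any group (12340 genes), with Benjamini-Hochberg adjustment over all of them. Genotype comparisons also used an unadjusted p under 0.05 and over 1.2-fold, in the manner of the study. edgeR 4.0.16 and DESeq2 1.42.0 on recovered reads, no TMM, pseudocount 0.1, no filter, the groups compared alone, a replicate block and leaving out libraries were alternatives; 3 were added after seeing the data. The fits were run on simulated counts with the same spread in all groups, which does not cover groups of unequal spread such as those here. The members and lists were chosen with earlier results of these data known. Besides the members and genes of interest fixed by name, up to 2 genes per list and direction with the smallest p were named. Fn1, Spp1 and the chondrocyte genes were named after their values were seen. Coordinates and exon lengths are from GENCODE M21 (GRCm38), promoters from RefSeq. Rows that name no gene entered no test and no marker sum, and served only to describe the libraries.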

Additional observations from a re-analysis of the deposited data

How the results depend on the processing

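Limits first. With 2 libraries a group, the calls rest on a spread shared by all groups, and leaving out a library leaves a lone one that is assumed to vary like the others. Depth limits Trib3 at day 12 (12 to 107 reads) most. Under no TMM, pseudocount 0.1, no filter, edgeR and DESeq2 on all groups, and TMM over all genes, 5 or 6 of the 10 genes were called lower in WT and 2 to 4 in Def6-/- cells. Fitting only the groups compared gave 2 in WT and 7 in Def6-/- cells, with limma and with edgeR alike. Over all genes that setting called 1093 (limma) and 1041 (edgeR) in WT cells in place of 2261, and 3918 and 3933 in Def6-/- cells in place of 2075, and leaving out libraries gave 888 to 5696 and 926 to 4328. Leaving out libraries, in part chosen after seeing the data, moved the WT count between 1 and 9 and the Def6-/- count between 0 and 7 (unadjusted 2 to 7). Between genotypes at day 0, genes of the 10 were called only without WT day 0 replicate 2, by either rule. Far more of all genes were called in that setting as well. The median day 0 difference of the 10 genes was then −0.42, beside −0.0425 over all genes. At day 12 and for the interaction none of the 10 was called after adjustment in any such setting, while some were at the unadjusted rule. The cause was not tested.

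Log2 estimates that changed sign with a library left out ranged as follows. With day in WT cells, Xbp1 ranged from −0.46 to 0.12, Ern1 from −0.35 to 1.25, Fn1 from −1.35 to 0.084, Slc7a11 from −0.29 to 0.76 and Creb3l2 from −0.47 to 1.001. With day in Def6-/- cells, Xbp1 ranged from −0.051 to 0.34, Dnajb9 from −0.21 to 0.27, Herpud1 from −0.44 to 0.29, Ern1 from −0.46 to 0.056 and Spp1 from −0.35 to 0.14. Between genotypes at day 0, Atf4 ranged from −0.44 to 0.16, Creb3l1 from −0.035 to 0.46, Xbp1 from −0.49 to 0.10, Ddit3 from −0.56 to 0.035, Trib3 from −0.61 to 0.026, Hspa5 from −0.54 to 0.047, Hsp90b1 from −0.53 to 0.0043, Dnajb9 from −0.26 to 0.22 and Herpud1 from −0.46 to 0.0012. At day 12, Atf4 ranged from −0.22 to 0.68, Trib3 from −0.82 to 2.06, Hsp90b1 from −0.055 to 0.050 and Herpud1 from −0.012 to 0.72. For the interaction, Atf4 ranged from −0.38 to 0.81, Creb3l1 from −0.20 to 0.30, Xbp1 from −0.048 to 0.60, Ddit3 from −0.029 to 1.15, Trib3 from −0.65 to 2.35, Hspa5 from −0.023 to 0.64, Hsp90b1 from −0.059 to 0.52 and Dnajb9 from −0.039 to 0.54.

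Without TMM, Dnajb9 changed by −0.053 with day in Def6-/- cells (−0.048 with TMM over all genes), and the genotype differences were 0.0091 for Atf4, 0.015 for Pdia4 and 0.115 for Dnajb9 at day 0 and 0.071 for Hsp90b1 at day 12, with −0.017 for the interaction of Creb3l1. The day 0 difference of Dnajb9 was 0.0020 in edgeR on the groups compared and 0.00014 with TMM over all genes. None of these estimates was past a threshold in either setting.

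The groups share replicate numbers, but nothing says that a number marks a shared preparation, and the replicate differences of pairs of groups correlated by 0.00055 to 0.33, so that the numbers were not taken as pairs. With the replicate block, 7 of 10 genes were called in WT cells (Herpud1 besides the 6) and 4 in Def6-/- cells (Atf4 besides the 3), with 0 between genotypes and for the interaction, and 2552 and 2286 of all genes with day in WT and Def6-/- cells.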
